A study of Homo sapiens and Homo sapiens
Mus musculus and Mus musculus with 200 samples.

Results

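The histone mark H3K27ac was measured by ChIP-seq in TWIST1FV cells after 3 h of the degrader dTAGV-1 and compared with the same cells at 0 h. The comparison used 4 of the 200 samples of the series (2 libraries per time), chosen by their labelled genotype, antibody and time, and 123361 of the 213151 merged ATAC-seq peaks in the count table passed the filter on low counts and were tested. TWIST1FV cells are human cranial neural crest cells (hCNCC) made by differentiation of H9, an embryonic stem cell line, in which the TWIST1 gene was edited so that its protein carries a tag that dTAGV-1 recruits to the degradation machinery. All TWIST1FV libraries carry the same clone name, c64, so the line is 1 clone. The control was WT hCNCC, which are unedited H9-derived cells given dTAGV-1 at the same dose (500 nM) for the same times, also with 2 libraries at 0 h and 2 at 3 h. Both lines have 2 further libraries at 24 h, which entered the estimate of the spread, and chromatin of the mouse line O9-1 was added to all of these samples as a spike-in. The last paragraph uses 4 other tagged lines of H9-derived hCNCC (ALX1FV, ALX1FV ALX4-, PRRX1FV and MSX1FNV), each with 2 libraries at 0 h and 2 at 3 h of the same dose and no labelled spike-in. In the first 3 of these the replicates carry different clone names, and in MSX1FNV both carry the same entry. The AP2a peak lists are of hCNCC with 1 library per antibody. The TWIST1 peak list of the lymphoblast line RS4;11 is also of 1 library. None of these libraries has a labelled time or dose. The labels do not say whether replicates were separate differentiations, so p-values measure only the spread between these libraries, which may be technical.

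TWIST1 is a basic helix-loop-helix transcription factor that binds E-box sequences as a dimer, usually with an E protein such as TCF3, TCF4 or TCF12. In cranial neural crest and the facial mesenchyme derived from it, TWIST1 is required for mesenchymal identity, and loss of 1 copy causes craniosynostosis in people. H3K27ac is deposited by the acetyltransferases p300 and CBP at active enhancers and promoters, and its level can change quickly when an activator leaves. AP2a (the product of TFAP2A) is a second regulator of neural crest chromatin and served here as a comparison.

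Some of the DNA behind the response is shown first, because the TWIST1 motif content of falling and rising regions is compared further on. Capitals mark each match to an E-box or to a homeodomain site, and all sequences are the plus strand of hg38. The E-boxes searched were CAGATG on either strand and the palindromes CAGCTG as well as CATATG. The homeodomain sites searched were TAATTA and, on either strand, the related site TAATTG. None of the falling peaks with the largest change or the smallest p held the composite motif, in which both sites lie 4 bp apart, so the 3 falling peaks with that motif and the smallest p are given instead, with 60 bp to either side. They were chosen after their values were seen.
KCNMA1 (chr10:76963066-76963201): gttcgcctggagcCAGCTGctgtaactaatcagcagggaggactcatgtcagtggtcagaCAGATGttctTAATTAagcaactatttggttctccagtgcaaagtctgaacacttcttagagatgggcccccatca
C4BPA (chr1:207130363-207130498): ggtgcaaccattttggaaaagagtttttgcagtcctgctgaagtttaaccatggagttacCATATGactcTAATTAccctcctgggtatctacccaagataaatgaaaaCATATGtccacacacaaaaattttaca
SMIM36 (chr17:55589087-55589222): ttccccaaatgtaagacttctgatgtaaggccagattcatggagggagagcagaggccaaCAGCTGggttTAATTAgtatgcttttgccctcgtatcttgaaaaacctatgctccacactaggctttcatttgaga

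At the KCNMA1 element the 0 h libraries of TWIST1FV had 259 and 210 H3K27ac counts and the 3 h libraries 42 and 32, against 272 and 271 and then 285 and 306 in WT. The C4BPA element went from 126 and 120 to 14 and 10, and the SMIM36 element from 518 and 634 to 146 and 194. In each of them both 3 h libraries lay far below both 0 h libraries, and the log2 fold changes were -2.63, -3.31 and -1.71. For 4 of the 5 falling peaks of smallest p among those described further on, the 121 bp around the TWIST1 summit of WT cells are shown, and the one near ZHX2 is not shown.
SLC30A10 (chr1:219792451-219792571): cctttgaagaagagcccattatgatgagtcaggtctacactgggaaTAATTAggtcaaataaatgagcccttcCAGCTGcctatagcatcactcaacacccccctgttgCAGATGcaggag
ELAC2 (chr17:13157151-13157271): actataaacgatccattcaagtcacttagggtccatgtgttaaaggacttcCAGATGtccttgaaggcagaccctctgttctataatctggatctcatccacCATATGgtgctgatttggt
IFI27L1 (chr14:94098437-94098557): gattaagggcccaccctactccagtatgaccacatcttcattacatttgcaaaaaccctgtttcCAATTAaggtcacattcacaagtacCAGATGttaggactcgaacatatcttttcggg
ZFHX3 (chr16:73972377-73972497): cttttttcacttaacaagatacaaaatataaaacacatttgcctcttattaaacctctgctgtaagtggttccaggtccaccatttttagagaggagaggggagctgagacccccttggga

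The first 3 of these windows hold 1 or 2 E-boxes and the ZFHX3 window holds none of the searched letters. The SLC30A10 window lies outside its ATAC peak. A rising peak near HDDC2, with the second smallest p among the rising peaks described further on, is given around its midpoint, so its window is not comparable with those at TWIST1 summits. It holds no match. Within 250 bp of the ATAC peak midpoint, the peaks of SLC30A10 and IFI27L1 hold 0 E-boxes, those of HDDC2 and ZFHX3 hold 1 and that of ELAC2 holds 2.
HDDC2 (chr6:125363886-125364006): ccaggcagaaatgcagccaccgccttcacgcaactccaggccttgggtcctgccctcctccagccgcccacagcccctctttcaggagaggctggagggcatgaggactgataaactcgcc

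The libraries were of like depth. Total counts over the peaks ran from 7163998 to 8817125 in the 6 TWIST1FV libraries and from 7080398 to 9173063 in the 6 WT libraries, and across peaks the log2 CPM of 2 replicates had a correlation of 0.888 to 0.921. Promoters of neural crest specifiers carried the mark at a median CPM per kb of 33.6 and 30.4 in the 0 h TWIST1FV libraries, against 35.7 and 32.3 in WT. The same median was 1.41 and 0.906 for neuroectoderm genes and 0.546 and 0.453 for HOX genes, which cranial crest lacks. The 0 h ranges of TWIST1FV and WT overlapped for all 3 of these lists but not for epithelial genes (0.688 and 1.36 against 1.85 and 1.66) or for housekeeping genes, whose highest TWIST1FV value lay below the WT values of 34.8 and 37.2. The epithelial promoter peak of EPCAM, an epithelial adhesion molecule, had 48 and 52 counts in TWIST1FV at 0 h, 80 and 64 at 3 h and 120 and 96 at 24 h, and its WT libraries had 20 to 56. For CDH1, which encodes E-cadherin, the peak lies at an annotated start site inside the gene, not at its first one. That peak had 12 and 20, then 42 and 22, then 46 and 45, with 6 to 22 in WT. Neither was called at 3 h (FDR 0.361 and 0.222), and the part of other cells in the results was not tested. Both genes are from a list of 25 epithelial genes, near which 5 of 104 tested peaks were called as falling and 1 as rising. A distal peak in an intron of CDH1, 8572 bp upstream of the nearest annotated start site, was among the falling ones. It went from 102 and 141 to 34 and 22 counts (log2 fold change -2.05). In such bulk samples, fewer cells with the mark and less mark per cell cannot be told apart.

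After 3 h the response was mostly a loss of acetylation. In edgeR's quasi-likelihood fit, with p adjusted after Benjamini and Hochberg (false discovery rate, FDR, under 0.05), 6520 peaks changed, which is 5.29% of those tested, and 5279 of them fell (4.28%) while 1241 rose (1.01%). The falling peaks had a median log2 fold change of -1.63 (quartiles -2.01 and -1.30), and 91.2% of them fell by more than 2-fold. The rising peaks had a median of 1.47 (1.09 and 1.89). Both 3 h libraries lay below both 0 h libraries in 25.3% of all tested peaks and above them in 22.4%, against 16.0% and 15.7% in WT. Without the first 0 h replicate of TWIST1FV, 3261 peaks were called, 2533 of them falling.

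**Figure D1:**
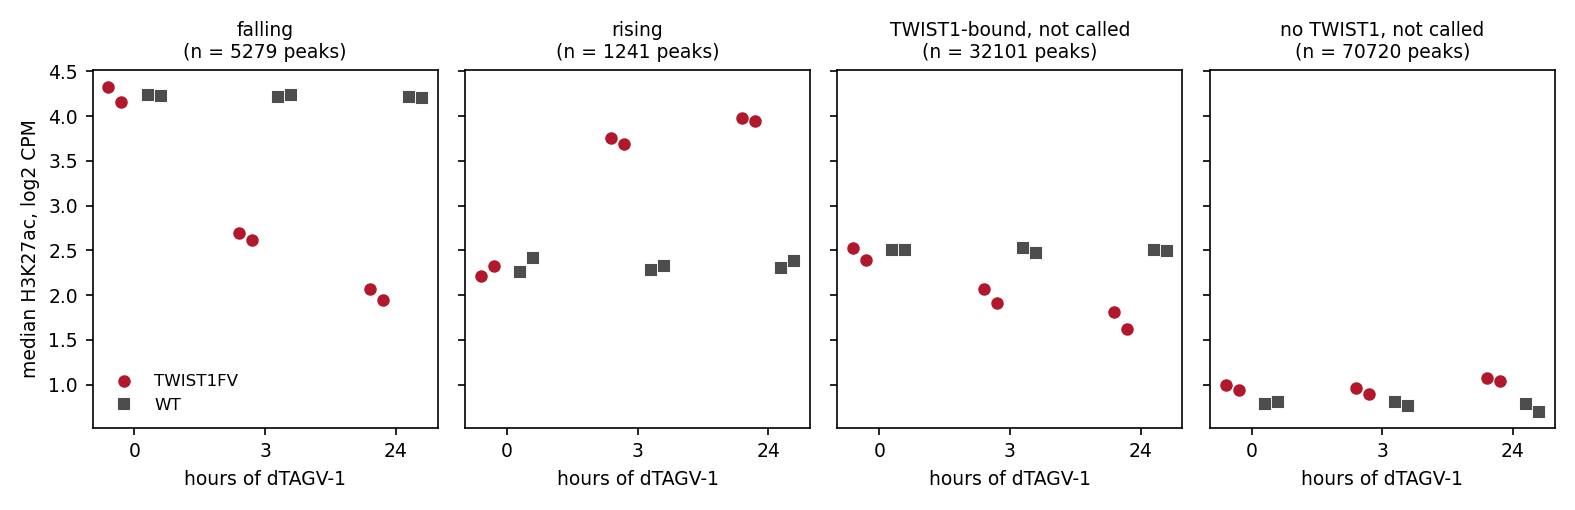
Median H3K27ac level in log2 CPM (vertical axis) of each library by hours of dTAGV-1 (horizontal axis), 1 point per library, for falling peaks, rising peaks, TWIST1-bound peaks without a call and peaks without TWIST1 and without a call. The falling peaks stood at 4.33 and 4.16 in TWIST1FV at 0 h and at 2.69 and 2.62 at 3 h, and WT stayed between 4.20 and 4.23.

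The medians per library show how the 2 lines diverged. Falling peaks stood at 4.33 and 4.16 log2 CPM in TWIST1FV at 0 h, close to 4.23 and 4.22 in WT, and at 2.69 and 2.62 at 3 h, when WT was at 4.21 and 4.23. At 24 h the TWIST1FV libraries were at 2.07 and 1.95. Rising peaks began at 2.21 and 2.33 and reached 3.75 and 3.69 at 3 h, against 2.28 and 2.33 in WT at 3 h. The TWIST1-bound peaks that were not called stood at 2.53 and 2.39 at 0 h and at 2.07 and 1.91 at 3 h, below both 0 h libraries, while WT held 2.53 and 2.47 at 3 h. These medians describe peaks that were chosen on the TWIST1FV libraries themselves, and the WT libraries took no part in that choice.

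WT cells given the same compound had 0 called peaks of 120860 (0.0%) by edgeR and 0 by DESeq2, with 4138 at an unadjusted p under 0.05. In WT the peaks that fell in TWIST1FV had a median log2 fold change of -0.0036 (quartiles -0.11 and 0.11) and those that rose a median of 0.021. The difference between the lines was tested directly as an interaction. TWIST1FV changed more negatively than WT at 3678 of 148460 peaks (2.48%) and more positively at 453 (0.305%). Of the falling peaks 3484 (66.0%) differed from WT by this test, all of them lower, and of the rising peaks 355 (28.6%), all of them higher. These peaks were chosen on the same TWIST1FV libraries that entered the test. The shared direction follows from that choice, and the shares are not independent support. The interaction count of 4131 fell to 2556 without the first TWIST1FV library at 0 h and to between 2293 and 2521 without any 1 of the 4 WT libraries.

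**Figure D2:**
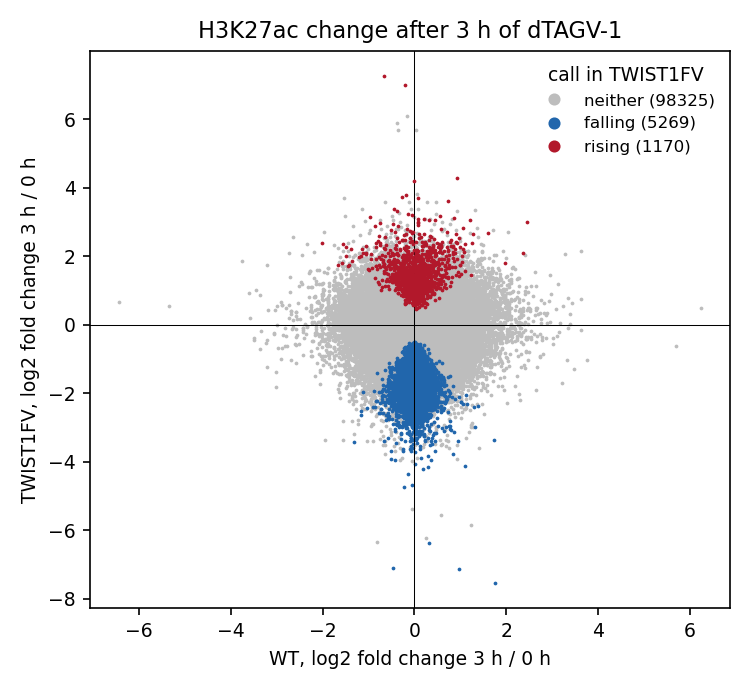
Log2 fold change of H3K27ac from 0 h to 3 h in TWIST1FV (vertical axis) against WT (horizontal axis), 1 point per peak tested in both lines, coloured by the call in TWIST1FV. Falling and rising peaks lie far from 0 on the TWIST1FV axis and around 0 on the WT axis, with WT medians of -0.0036 and 0.021.

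The scale of these changes is relative, because the counts were scaled on the peaks themselves and the spike-in reads were not used here. With the scaling factors computed only on peaks that no TWIST1 list touches, the median of all peaks moved from 0.0228 to -0.184, 8348 peaks fell and 712 rose, and the falling share of calls went from 81.0% to 92.1%. All 712 of those rising peaks were among the 1241. With library size alone the median was 0.111 and 72.5% of calls fell.

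Nearly all falling peaks lay where TWIST1 bound before degradation. A peak counted as TWIST1-bound where at least 1 bp of it lay in a TWIST1 ChIP-seq peak that both 0 h replicates of WT shared. Of the falling peaks 5012 were TWIST1-bound (94.9%, Wilson 95% interval 94.3 to 95.5), of the rising peaks 246 (19.8%, 17.7 to 22.1), and of all tested peaks 37359 (30.3%). The shares were 88.9%, 9.11% and 18.2% with the TWIST1 list of TWIST1FV cells at 0 h. The share of rising peaks was below that of all tested peaks with either list. Wilson intervals cover counting error only, and neighbouring peaks are not independent.

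The loss followed the strength of TWIST1 binding. The 37359 bound peaks were put in 10 bins of equal size, from weak (bin 1) to strong (bin 10), by the authors' -log10 q of the TWIST1 peak in WT. In bin 1, 0.99% of peaks fell and the median log2 fold change was 0.078. In bin 5, 4.26% fell, with a median of -0.45. In bin 8, 21.8% fell (median -0.85), and in bin 10, 47.2% (median -0.97). The WT medians of the 10 groups lay between -0.0028 and 0.016. Over these peaks the Spearman correlation of TWIST1 strength with the log2 fold change was -0.42 in TWIST1FV and -0.00967 in WT, as a description across peaks of shared libraries. Strongly bound peaks also carried more H3K27ac, at a median of 4.31 log2 CPM in bin 10 against 1.79 in bin 5, and a higher count makes a given change easier to call.

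**Figure D3:**
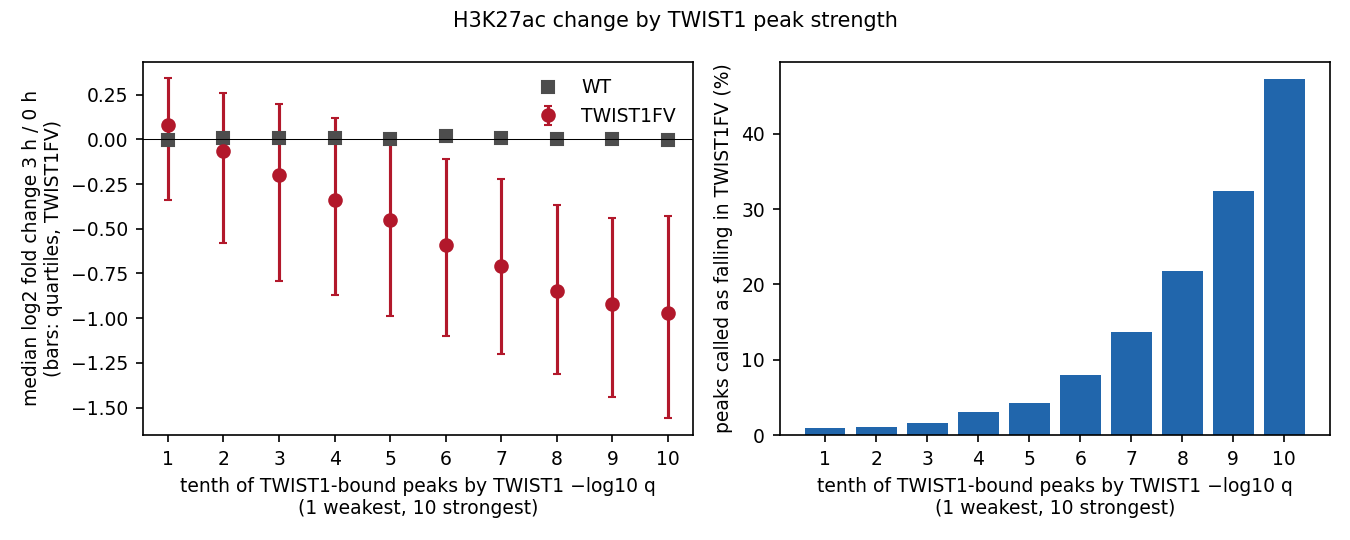
Left, median log2 fold change of H3K27ac from 0 h to 3 h (vertical axis) in 10 bins of TWIST1-bound peaks ordered by TWIST1 -log10 q (horizontal axis), with quartile bars for TWIST1FV and squares for WT. Right, the percentage of each bin called as falling, which rises from 0.99% in bin 1 to 47.2% in bin 10.

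A few TWIST1 peaks were still called in TWIST1FV cells at 3 h, and the median loss of acetylation beneath them was smaller. Among distal TWIST1-bound peaks of bin 10 that were in the TWIST1FV list at 0 h, 772 overlapped a TWIST1 peak left at 3 h in either replicate and 2490 did not. The median log2 fold change was -0.43 (quartiles -0.83 and -0.12) where TWIST1 was left and -1.24 (-1.76 and -0.74) where it was not, and 23.8% against 57.9% of the peaks fell. In WT the medians were 0.012 and -0.0067. Over distal bound peaks of all strengths in the TWIST1FV list the falling shares were close, 21.0% of 975 with TWIST1 left (median -0.40) and 23.1% of 18139 without (-0.80). The sites with TWIST1 left had a higher H3K27ac level (median 5.24 against 3.98 log2 CPM) and a higher TWIST1 -log10 q (422 against 335). With distal bound peaks put in 3 classes of H3K27ac level, the medians were -0.42 and -1.20 in the highest class and -0.68 and -1.37 in the middle class.

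Falling peaks lay farther from start sites than tested peaks in general. A peak was called a promoter when it lay within 1000 bp of a transcription start site (TSS) of a protein-coding gene in GENCODE 44. The start of every annotated transcript was used, so start sites inside a gene count as well. Promoters made up 318 of the falling peaks (6.02%, 5.41 to 6.70), 207 of the rising peaks (16.7%, 14.7 to 18.9) and 20.5% of all tested peaks. The median distance to the nearest such TSS was 41783 bp for falling peaks, 16980 bp for rising peaks and 16866 bp for all. Falling peaks lay over 100 kb from a TSS in 32.1% of cases, against 17.8% of rising and 20.3% of all peaks. At the midpoint, 44.6% of falling peaks were in introns of protein-coding genes, 35.4% were intergenic and 14.9% were in introns of non-coding genes, against 46.0%, 29.2% and 11.5% of all peaks.

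At TWIST1-bound sites the median loss was smaller where AP2a was also bound. A peak counted as AP2a-bound where it overlapped peaks of both AP2a antibodies, of which each had 1 library. This was so for 19.5% of falling, 23.1% of rising and 14.6% of all tested peaks. Distal peaks with TWIST1 and without AP2a had a median log2 fold change of -0.70, and 3789 of 25903 fell (14.6%). Distal peaks with both factors had a median of -0.32, and 927 of 5078 fell (18.3%), a higher share of calls at a higher H3K27ac level (median 4.01 against 1.87 log2 CPM). Distal peaks with AP2a alone had a median of 0.34, where 6 of 2355 fell and 108 rose (4.59%). Distal peaks with neither factor had a median of 0.16, with 239 of 64731 falling and 729 rising. At promoters with both factors the median was 0.11, and 92 of 3615 fell, against -0.11 and 204 of 2763 with TWIST1 alone. The WT medians of all 8 classes lay between -0.045 and 0.025. Because the scaling on unbound peaks moved the median of all peaks to -0.184, the signs of the medians nearest to 0 depend on the scaling.

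**Figure D4:**
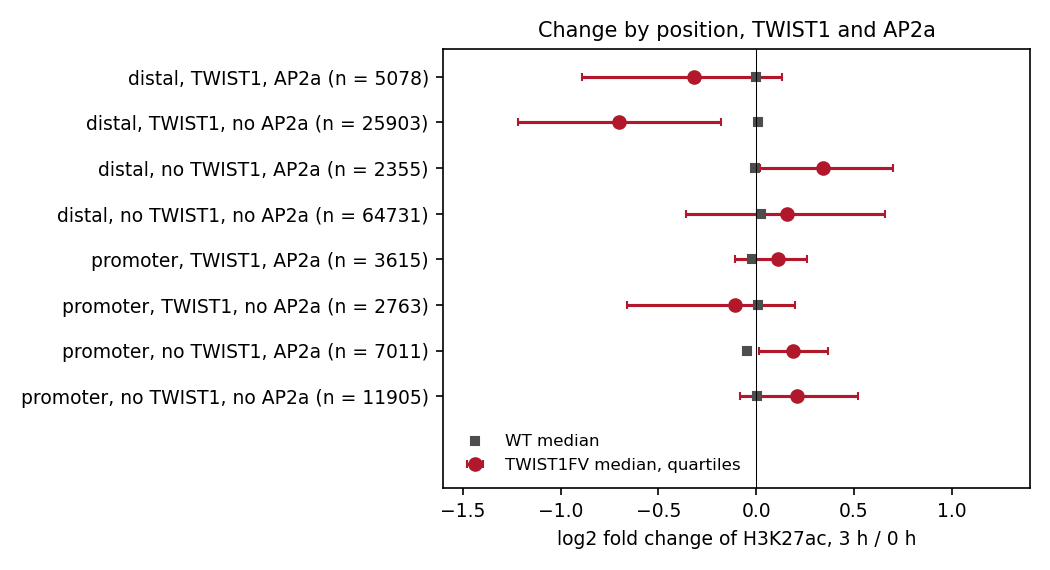
Median log2 fold change of H3K27ac from 0 h to 3 h (horizontal axis) with quartile bars for TWIST1FV and squares for WT, in 8 classes of tested peaks by promoter or distal position, TWIST1 overlap and AP2a overlap (vertical axis, n is the number of peaks). Distal peaks with TWIST1 and without AP2a lie lowest, at -0.70.

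The medians also differed between peaks with and without AP2a at matched TWIST1 strength. With bound peaks put in 5 bins of strength, in the strongest bin distal peaks had a median of -0.70 with AP2a and -1.14 without, and 35.2% against 44.6% fell. In the middle bin the medians were -0.077 and -0.67, and in the weakest bin 0.28 and -0.26. Within the strongest bin and the highest class of H3K27ac level, they were -0.63 for 1765 peaks with AP2a and -1.05 for 2730 without. Within the lowest class of level, where only 33 peaks had AP2a, they were -1.15 and -1.18. Promoters in the strongest bin had -0.27 with AP2a and -0.78 without. These are descriptions of peaks from the same libraries, and the difference between classes was not tested.

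Motif content was read in the 250 bp to either side of each peak's midpoint, on both strands. An E-box was present in 77.9% of falling, 62.9% of rising and 64.4% of all tested peaks, and a homeodomain site in 43.6%, 24.7% and 28.9%. Among distal TWIST1-bound peaks alone, an E-box was in 78.9% of those that fell and 79.2% of those that did not. The composite motif (an E-box and a homeodomain site 4 bp apart in either order) occurred in 123 falling peaks (2.33%, 1.96 to 2.77), 1 rising peak (0.0806%) and 0.698% of all tested peaks. Among distal TWIST1-bound peaks the falling share with the composite motif lay within the range of the other motif classes. Of 718 such peaks with it 16.6% fell (median -0.78), and of 8940 with both sites at another spacing 16.7% fell (median -0.72). The share was 14.2% (median -0.59) of 14856 with an E-box alone and 17.2% (median -0.72) of 2977 with a homeodomain site alone. It was 13.8% (median -0.53) of 3490 with neither site, and 15.2% over all 30981. Peaks with the composite motif had the lowest H3K27ac level of these classes (median 1.65 log2 CPM, against 2.15 over all). A lower count makes a given change harder to call. The AP2 motif GCCNNNGGC was present in 13.3% of falling, 29.7% of rising and 24.4% of all peaks. The AP-1 motif TGANTCA was in 15.6%, 16.8% and 15.3%, with no like difference.

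Peaks bound by the homeodomain factor ALX1 were frequent among those that fell. A V5 peak of tagged ALX1 in the ALX1FV line, in either replicate, overlapped 649 falling peaks (12.3%), 18 rising peaks (1.45%) and 1.23% of all tested peaks. Of 1390 distal TWIST1-bound peaks with ALX1, 44.3% fell, against 13.9% of 29591 without. Their median TWIST1 -log10 q was 306 against 38.0, and their median H3K27ac level 4.34 against 2.06 log2 CPM. In bin 10 of TWIST1 strength, with or without ALX1, 47.2% of bound peaks fell, so a high falling share was not particular to ALX1. The medians of the log2 fold change were -0.88 and -0.63. TWIST1 peaks of the lymphoblast line RS4;11 showed the other order, as they overlapped 11.7% of falling, 27.5% of rising and 24.1% of all peaks.

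Single peaks are described where their H3K27ac level, averaged over the 0, 3 and 24 h libraries of TWIST1FV, lay above the median of tested peaks. Those described also had both 3 h libraries beyond both 0 h libraries, with at most 1 peak per nearest protein-coding gene. Of these, the falling peak with the smallest p lay at chr1:219791727-219792227 in an exon of a non-coding transcript of SLC30A10, which encodes a manganese exporter, 126803 bp downstream of the nearest protein-coding TSS, that of the same gene. It had 615 and 572 counts in TWIST1FV at 0 h, 48 and 45 at 3 h and 66 and 66 at 24 h. WT held 643 and 517 counts untreated, then 693 and 743 after 3 h. Both TWIST1FV libraries at 3 h lay far below both at 0 h, and both WT libraries at 3 h lay above those at 0 h. The log2 fold change was -3.64 (SE 0.24, FDR 3.74e-06).

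The other falling peaks of smallest p follow, and the rule above fixed that both 3 h libraries lay below both at 0 h. The intergenic peak 138908 bp upstream of ELAC2, a tRNA-processing nuclease, went from 447 and 507 to 45 and 56 counts (log2 fold change -3.19, SE 0.24, FDR 8.43e-06). The peak 79239 bp upstream of ZFHX3, a zinc finger homeobox factor, went from 728 and 680 to 85 and 83. In an intron of CEP68, a centrosomal protein, 6325 bp from the TSS, counts went from 764 and 820 to 136 and 163. Upstream of the chemokine gene CCL2 by 27901 bp they went from 1078 and 1381 to 286 and 322 (-1.96). The peaks near ZHX2 and SPDYE21 fell by 2.77 and 2.79 on the log2 scale. These 7 peaks and the promoter peak of IFI27L1, described further on, are the 8 of smallest p. All 8 were TWIST1-bound, and those near CEP68 and CCL2 also carried AP2a. None of them overlapped a TWIST1 peak left at 3 h.

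**Figure D5:**
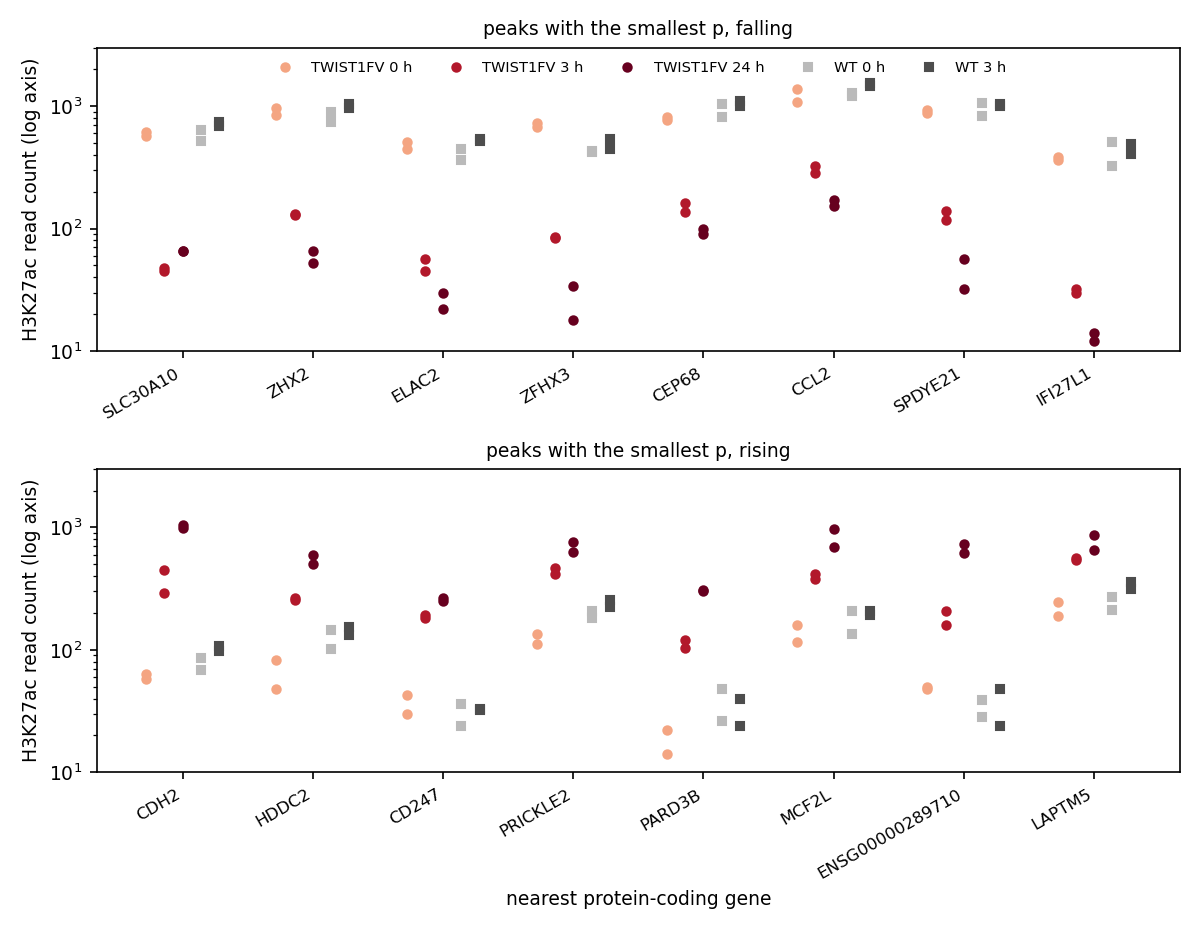
H3K27ac read counts (vertical axis, log scale) of the 8 falling and the 8 rising peaks with the smallest p, by nearest protein-coding gene (horizontal axis), 2 points per group for TWIST1FV at 0, 3 and 24 h and WT at 0 and 3 h. At the SLC30A10 peak TWIST1FV went from 615 and 572 to 48 and 45, and at the CDH2 peak from 58 and 64 to 290 and 453.

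Ranked by size instead, the 8 falling peaks included distal elements near GCNT1, a glycosyltransferase (139 and 143 to 11 and 11 counts, log2 fold change -3.62), NEBL, which encodes the actin-binding nebulette (293 and 255 to 32 and 12, -3.59), and WDHD1, a replication factor (239 and 150 to 14 and 16, -3.68). The peak 47273 bp upstream of MPP7, a membrane scaffold protein, went from 85 and 78 to 6 and 6 (-3.70). It was the only one of the 8 largest falls that did not overlap the TWIST1 list. The WT libraries had 74 and 77 counts at the MPP7 peak before and 88 and 86 after 3 h. The MPP7 peak overlapped a TWIST1 peak of RS4;11. The SLC30A10 peak and those near KCNIP4 and COL14A1 also belonged to this group.

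Promoter peaks that fell belonged to 270 genes, of 16316 genes with any tested peak. They were 318 of the 25294 tested promoter peaks. The promoter peak of IFI27L1, of an interferon-inducible gene family, fell from 384 and 362 to 30 and 32 counts (log2 fold change -3.55, SE 0.28, FDR 8.43e-06). WT had 506 and 327 and then 491 and 410. VPS13D, a lipid transfer protein, had 1205 and 1398 counts at 0 h and 346 and 380 at 3 h in a peak 48 bp from an annotated TSS (-1.79). IFT57, of the intraflagellar transport machinery, went from 469 and 470 to 84 and 75 (-2.52). CYFIP2, of the actin-regulating WAVE complex, went from 880 and 980 to 195 and 299 (-1.87), and CHN1, a regulator of Rac, from 406 and 408 to 77 and 95 (-2.20). That the 3 h libraries lay below both 0 h libraries in these 5 genes was required by the rule for single peaks. All 5 peaks were TWIST1-bound, and only that of CYFIP2 also carried AP2a. The annotation places all 5 midpoints in introns of the same genes. Those of VPS13D, CYFIP2 and CHN1 lay upstream of the start site used and still inside the gene, so that start site is an internal one. For IFI27L1 and IFT57 this was not checked. A loss at the main promoters of these genes is therefore not shown.

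At the start sites of TWIST1, TWIST2 and TFAP2A no change was called. The peak over the TWIST1 start site had 136 and 154 counts at 0 h and 139 and 152 at 3 h. A stronger peak 166 bp from that start site had 212 and 366, then 286 and 407, and 512 and 604 at 24 h (log2 fold change at 3 h 0.33, SE 0.21, FDR 0.468), with 314 to 404 in the WT libraries. TWIST2, its closest paralogue, had 76 and 100 and then 114 and 96 (log2 fold change 0.31, SE 0.29, FDR 0.641). TFAP2A had 660 and 798 and then 690 and 784. The groups overlapped at both TWIST1 peaks and at TFAP2A, and at TWIST2 1 of the 3 h libraries lay below the higher 0 h library.

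The rising peak with the smallest p was intergenic, at chr18:27712200-27713449, 252386 bp downstream of the TSS of CDH2, which encodes N-cadherin. It had 58 and 64 counts in TWIST1FV at 0 h, 290 and 453 at 3 h and 987 and 1043 at 24 h, against 69 and 86 and then 98 and 108 in WT at 0 and 3 h. The log2 fold change was 2.64 (SE 0.22, FDR 8.43e-06), and the difference from WT was 2.47 (FDR 1.06e-05). The mark was thus higher at 24 h than at 3 h in both TWIST1FV libraries. No TWIST1 peak overlapped it.

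The other 7 rising peaks of smallest p follow. The peak 21699 bp upstream of PRICKLE2, of the planar cell polarity pathway, went from 134 and 112 to 414 and 463 counts (log2 fold change 1.86). In an intron of PARD3B, a polarity protein, counts went from 14 and 22 to 104 and 121 and reached 304 and 306 at 24 h. A peak in an intron of MCF2L, a guanine nucleotide exchange factor, 1097 bp from a TSS of the gene, went from 116 and 159 to 380 and 417, and it overlapped both TWIST1 and AP2a. The peak in CD247, which encodes a T-cell receptor subunit, went from 30 and 43 to 183 and 194, and that 61618 bp upstream of HDDC2 from 48 and 82 to 254 and 266. LAPTM5 (188 and 244 to 543 and 560) and ENSG00000289710 (48 and 50 to 208 and 160) completed the 8. Of the 8 peaks 3 overlapped a TWIST1 peak, each of them weak, with a -log10 q of 11.0, 3.25 and 5.66.

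The 8 largest rises by fold began from very low counts. They passed the rule on level through an average that includes the 3 and 24 h libraries, so the rise itself took part in their choice. The peak 14868 bp upstream of CRTAC1 had 0 and 0 counts at 0 h and 16 and 14 at 3 h, which was at least 5.14-fold higher when each 0 h library is set at 3 counts, while WT had 8 and 10 at 0 h. SFTA2 (6 and 4 to 37 and 62), RCSD1 (10 and 4 to 84 and 44), RALB (4 and 4 to 44 and 30) and NALF1 (4 and 2 to 31 and 32) began at 10 counts or fewer. At 6 of the 8 peaks (SFTA2, CRTAC1, RALB, NALF1, IL1RAPL2 and CRYBG2) both WT libraries at 0 h had higher counts than both TWIST1FV libraries at 0 h. At MRPS5 the ratio was 11.4 from 2 and 2 counts (exact 95% counting interval 4.15 to 43.7), at IL1RAPL2 13.5 (4.96 to 51.3) and at CRYBG2 15.0 (5.57 to 57.0). CRYBG2 lost its call by DESeq2 and without the first 3 h replicate, with log2 fold changes between 2.77 and 3.92. The difference from WT did not pass the test at IL1RAPL2, CRYBG2 and MRPS5 (FDR 0.064, 0.175 and 0.279). Because most counts were even, both mates of a fragment may be counted, and the counting intervals may then be too narrow and the floor of 3 counts too low. None of these 8 peaks overlapped TWIST1 or AP2a.

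Rising promoter peaks belonged to 184 genes, of 16316 genes with any tested peak. They were 207 of the 25294 tested promoter peaks. CDH3, which encodes P-cadherin, had 79 and 94 counts at 0 h and 297 and 236 at 3 h (log2 fold change 1.68, SE 0.22, FDR 0.000272), against 92 and 82 and then 104 and 110 in WT. Its peak spans the start site and carried AP2a without TWIST1. IGSF9B, an immunoglobulin superfamily adhesion protein, went from 91 and 92 to 319 and 224, and LHFPL1 from 137 and 228 to 369 and 448. LMOD3, an actin nucleator of muscle, went from 50 and 66 to 188 and 149, and TEX264, a receptor for autophagy of the endoplasmic reticulum, from 78 and 136 to 310 and 253. That the 3 h libraries lay above both 0 h libraries at all 5 peaks was required by the rule for single peaks. The TEX264 peak lay in an intron of that gene, upstream of the start site used, so that start site is an internal one.

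Falling and rising peaks gathered in different places. Of the falling peaks 40.8% had another falling peak within 10 kb and 0.0947% a rising one. Of the rising peaks 30.6% had another rising peak within 10 kb and 0.564% a falling one, and of all tested peaks 7.11% had a falling and 2.35% a rising one. The largest cluster of falling peaks covered chr4:41600178-41633704 in LIMCH1, which encodes an actomyosin regulator, where 8 of 12 tested peaks fell with a median of -1.24. Next came 7 of 7 peaks near SYT14 and UTP25 on chromosome 1 (median -2.07), 7 of 7 near LMNTD1 on chromosome 12 (-2.31), 7 of 7 near TNFRSF11B (-2.10), the gene of the osteoclast inhibitor osteoprotegerin, and 6 of 6 at TGFBI (-1.02), which encodes a matrix protein induced by TGF-beta. WT medians in these 5 clusters lay between -0.082 and 0.093. The largest rising clusters were 5 of 5 peaks near ASB4 (1.31), 5 of 5 at DLGAP1 (0.90) and 4 of 4 in CD247 (2.53). Their WT medians had the same sign, at 0.21, 0.11 and 0.50.

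By nearest gene, 2509 of 16316 genes had a falling peak, 868 a rising peak and 227 both. SUGCT and EFNA5 had 16 falling peaks each, of 58 and 147 tested, and 14 and 16 of those were TWIST1-bound. EFNA5 encodes an ephrin ligand used in crest migration and suture patterning. ROBO2, a Slit receptor, had 14 of 82, SEMA5A, a semaphorin, 14 of 87, and TENM4, a teneurin adhesion protein, 14 of 129. LIMCH1 had 14 of 63 and THADA 14 of 47, and ZFHX3, TRIO and ADGRL2 had 13 each. A large number of tested peaks goes with a long gene or a wide gene desert, and these counts are not scaled for it. GPC5, a glypican, and SHANK2, a scaffold protein, had 9 rising peaks each, of 133 and 54, and NPHP4 and CD247 had 8 each, of 34 and 22. MSI2 had 7 rising peaks, CUEDC1, NTMT1 and DLGAP1 had 6, and HDDC2 and PRKCH had 5, while PRKCH also had 6 falling ones.

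Among gene groups, peaks near BMP and TGF-beta genes and near matrix genes had falling shares above the 4.28% of all tested peaks. Other lists given further on had shares of like size, such as 6.68% for bone and cartilage. TWIST1 bound 38.0% of the tested peaks near BMP and TGF-beta genes and 39.2% near matrix genes, against 30.3% of all. It bound 38.0% near neural crest specifiers and 40.8% near facial mesenchyme factors, whose falling shares are given next. In the BMP and TGF-beta pathway 60 of 847 peaks fell (7.08%) and 3 rose (0.354%, against 1.01% of all tested peaks). The median log2 fold change was -0.21 against 0.023 over all peaks. SMAD3, a transducer of TGF-beta, had 10 falling peaks of 50, BMP7 7 of 65, and LTBP1, which stores latent TGF-beta in the matrix, 6 of 29. The BMP7 peak of smallest p went from 1012 and 984 to 322 and 191 counts, and that of SMAD3 from 179 and 240 to 54 and 44. Of the extracellular matrix list 62 of 942 peaks fell (6.58%) and 3 rose (0.318%). PAPPA, a protease that frees insulin-like growth factors, had 9 falling peaks of 36, and a peak in an intron of PAPPA went from 369 and 452 to 66 and 77 (-2.47). POSTN (periostin) went from 468 and 589 to 128 and 129 and NID1 (nidogen) from 290 and 323 to 44 and 59 at the peaks of smallest p.

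The lists of transcription factors had falling shares close to the 4.28% of all tested peaks. Of the neural crest specifiers 57 of 1036 peaks fell (5.50%), near 14 of 24 genes, and 9 rose (0.869%). ETS1 had 11 falling peaks of 96 and SOX9, a master gene of crest and cartilage, 7 of 89. The SOX9 peak of smallest p, 306374 bp upstream of the gene, went from 446 and 382 to 91 and 90 counts (log2 fold change -2.16), with 503 and 355 and then 446 and 516 in WT. TFAP2A had 6 falling peaks of 66, although its start site did not change. Of the facial mesenchyme factors 48 of 1006 peaks fell (4.77%), near 19 of 58 genes, and 6 rose (0.596%). OSR1 had 7 of 47, TBX18 6 of 23 and MSX1, a homeobox gene of the facial prominences and teeth, 5 of 34. The MSX1 peak 124114 bp upstream went from 292 and 276 to 48 and 51 counts (-2.48).

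Bone and cartilage genes had 30 falling peaks of 449 (6.68%) and 5 rising ones (1.11%), against 4.28% and 1.01% of all tested peaks. Most falling peaks lay near SOX5 with 8 and SOX9 with 7. RUNX2, the master factor of osteoblasts, had 4 of 28. Craniosynostosis genes had 25 of 741 (3.37%) falling and 12 (1.62%) rising. HDAC9, a neighbour of TWIST1, had 3 falling and 4 rising peaks, and MSX2 had 4 falling, the strongest of them going from 120 and 132 to 22 and 36 counts. Cadherins, integrins and EMT regulators had 51 of 781 falling (6.53%) and 10 rising (1.28%), with 11 falling near CDH11, a mesenchymal cadherin, and 6 near ITGB5.

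The E proteins and ID inhibitors, which pair with or block bHLH factors, had 7 of 230 peaks falling (3.04%, against 4.28% of all tested peaks) and 5 rising (2.17%, against 1.01%). All 5 rising ones lay near ID3, of 22 tested there, whose median log2 fold change was 1.02 and -0.15 for the 19 peaks of ID4. The ID3 peak of smallest p, 35372 bp upstream, went from 56 and 76 to 172 and 153 counts (1.36, FDR 0.00422), against 62 and 64 and then 94 and 72 in WT, and its difference from WT had an FDR of 0.0927. The ID4 peak went from 249 and 337 to 84 and 106 (-1.57). The TCF4 peak went from 70 and 77 to 10 and 2 (-3.54).

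WNT pathway genes had 56 of 1046 peaks falling (5.35%) and 7 rising (0.669%), against 4.28% and 1.01% of all tested peaks. TCF7L2 had 8 falling peaks, LEF1 5 and FZD1, a WNT receptor, 4. The LEF1 peak, in an intron of the gene and 1594 bp from an annotated TSS, went from 374 and 303 to 56 and 46 counts (log2 fold change -2.70). The TCF7L2 peak of smallest p was not called without the first 0 h replicate, at -1.73. FGF and receptor tyrosine kinase genes had 52 of 1260 falling (4.13%) and 14 rising (1.11%), near the background. PDGF and hedgehog genes had 20 of 498 falling (4.02%) and 8 rising (1.61%). GAS1 and BOC, both hedgehog co-receptors, had 8 and 5 falling peaks, while GLI3 and PDGFC had 3 rising and 0 falling peaks each. The GLI3 peak went from 96 and 152 to 222 and 274 counts (1.06), and it lost its call without the first 0 h replicate (0.90).

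Of the other lists, TEAD and YAP targets had 36 of 606 peaks falling (5.94%), smooth muscle and pericyte genes 9 of 135 (6.67%, 4 of them near RGS5), immediate early and AP-1 genes 16 of 372 (4.30%), and epithelial genes 5 of 104 (4.81%). Over all tested peaks 4.28% fell and 1.01% rose. Neuronal and glial genes had 8 falling and 8 rising peaks of 258 (3.1% each), a falling share below and a rising share above those of all tested peaks. NEUROD1 had 3 rising peaks of 8, and the strongest went from 40 and 54 to 168 and 149 counts. Neuroectoderm had 2 falling and 2 rising of 170 (1.18% each), pluripotency 2 and 3 of 120 (1.67% and 2.5%), and HOX genes 0 of 1. Housekeeping genes had 0 falling and 1 rising of 133 (0.752%). The lists overlap in members, and no list was tested as a set.

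A small group of falling peaks lay outside the TWIST1 list. Of the 5279 falling peaks 267 were not TWIST1-bound, and 120 of these overlapped a TWIST1 peak in at least 1 of the 4 lists of WT and TWIST1FV at 0 h. That left 147 with none, of which 93 lay within 5000 bp of a TWIST1-bound falling peak. The median distance of the 267 to such a peak was 1760 bp. Their median log2 fold change was -1.93, against -1.63 for all falling peaks.

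The tagged lines ALX1FV, ALX1FV ALX4-, PRRX1FV and MSX1FNV were also given dTAGV-1 for 3 h. At the peaks that fell in TWIST1FV the median log2 fold change was -0.081 in ALX1FV and -0.18 in ALX1FV ALX4-, with 66.0% and 76.3% of peaks below 0. It was -0.0041 in PRRX1FV and 0.027 in MSX1FNV, with 51.0% and 44.3% below 0. At the peaks that rose, the medians were 0.078, 0.13, -0.001 and -0.032 in the same order. None of these peaks was called in any of the 4 lines by edgeR. In ALX1FV and ALX1FV ALX4- the medians at falling and rising peaks thus had the signs seen in TWIST1FV at a small size, and the difference from WT was not tested.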

How the data were processed

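H3K27ac ChIP-seq read counts over 213151 merged ATAC-seq peaks were deposited by the authors as whole numbers, without normalization. Between 76.7% and 80.6% of counts of 20 or more were even in each library, so fragments may be counted once per mate. TWIST1, AP2a and V5 peak lists were deposited per library with a fold enrichment, a -log10 p and a -log10 q, per the narrowPeak column order of the files. Reads were aligned to hg38 with mm39 for the spike-in, per the labels, and the submitters' processing notes name Bowtie2 2.4.1, MACS2 2.2.7.1, SAMtools 1.10 and deepTools 3.5.0 without roles. Spike-in reads were not used here.

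Counts were tested with edgeR 4.0.16 in R 4.3.3 (TMM scaling, filterByExpr, quasi-likelihood F-test, group means over 0, 3 and 24 h, Benjamini-Hochberg FDR of 0.05), and the difference between TWIST1FV and WT as an interaction over 12 libraries. The standard error is the log2 fold change divided by the root of F. DESeq2 1.42.0, other scalings, no filter, halved counts and leaving out each replicate were alternatives. The fits were tested on simulated data. Log2 CPM used a prior count of 2. Genes are from GENCODE 44, overlaps (bedtools 2.31.1) are of 1 bp or more, and sequences were read from hg38 by coordinates. Peaks and genes were named by size, by p, by promoter position, by number of called peaks and by the 3 members of each gene list with the most called peaks. Some results are not reported here. The members and the gene lists were chosen with earlier results of these data known.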

Additional observations from a re-analysis of the deposited data

Results flagged for a closer look

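The change from 0 h to 3 h differed between TWIST1FV and WT at 4131 peaks by the interaction term of edgeR's quasi-likelihood test (Benjamini-Hochberg FDR under 0.05). The peaks below passed that test, and each value is the log2 fold change of TWIST1FV minus that of WT. They were chosen on TWIST1FV libraries that also entered the test.

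Among falling distal peaks the difference was -4.59 near COL14A1, -4.29 near KCNIP4, -3.73 near SLC30A10, -3.68 near MPP7, -3.57 near WDHD1, -3.53 near NEBL and -3.51 near GCNT1. It was -3.37 near ELAC2, -3.02 near ZFHX3, -2.84 near ZHX2, -2.69 near SPDYE21, -2.33 near CEP68 and -2.0 near CCL2. At falling promoter peaks it was -3.46 for IFI27L1, -2.53 for IFT57, -2.07 for CHN1, -1.85 for CYFIP2 and -1.7 for VPS13D.

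Among rising distal peaks the difference was 3.85 near NALF1, 3.72 near SFTA2, 3.4 near RALB and 3.3 near RCSD1. The fitted value of 7.23 near CRTAC1 depends on the prior count, because both 0 h libraries of TWIST1FV had 0 counts there. The difference was 3.14 near PARD3B, 2.54 near CD247, 2.47 near CDH2, 2.09 near ENSG00000289710, 2.06 near HDDC2, 1.79 near PRICKLE2, 1.55 near MCF2L and 1.15 near LAPTM5. At rising promoter peaks it was 1.6 for CDH3, 1.54 for IGSF9B, 1.54 for LHFPL1, 1.47 for LMOD3 and 1.38 for TEX264.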

How the results depend on the processing

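The number of called peaks in TWIST1FV (6520) was 6010 by DESeq2, 6082 with library size scaling, 9060 with scaling on peaks without TWIST1, 4927 without a filter, 6587 with the 0 h and 3 h libraries only and 8033 with halved counts. Leaving out 1 replicate gave 3261 to 6745, 0 to 3 in WT, and 2293 to 4019 for the difference between lines. With the replicate block, 12914 peaks were called in TWIST1FV and 7856 differed from WT. The numbers were not treated as pairs, because the labels do not say that same-numbered libraries belong together. Such TWIST1FV libraries deviated together with r of 0.105, 0.0766 and 0.14, and WT libraries with 0.0425, 0.0354 and 0.0384. All of these are above 0, and they run over all tested peaks, where noise at low counts lowers r. They cannot show that pairing is absent, and a shared replicate effect was not tested.

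The TWIST1 share of falling peaks was 88.9% with the TWIST1FV list, 97.0% with either WT replicate, 81.9% with a summit inside the peak and 96.5% for calls by DESeq2, and of rising peaks 9.11%, 34.5% and 25.9% for the first 3, against 18.2%, 40.6%, 32.6% and 30.3% of all tested peaks. With either AP2a antibody the AP2a share was 29.0% of falling and 33.8% of rising peaks (21.2% of all), and 21.1% of falling peaks by DESeq2 (14.6% of all). The promoter share of falling peaks was 4.81% within 500 bp, 10.4% within 2500 bp and 9.64% with all annotated genes, of rising peaks 12.8%, 22.8% and 23.7%, and of all 17.7%, 25.7% and 25.4%. Within 100 bp of the midpoint the composite motif was in 1.4% of falling, 0% of rising and 0.456% of all peaks. The cause of these shifts was not tested, apart from windows and lists that are wider or narrower by construction.

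Of 96 named peaks none changed direction in the alternatives run, and 14 lost their call in at least 1 (among them CALD1, CRYBG2, DLC1, DPPA4, FOXA2, GLI3, LIN28B, OTX2, SIX3, TCF7L2, TP63, TPM1 and YWHAZ). Of these 14, CRYBG2, DPPA4, LIN28B and SIX3 were rises from under 10 counts at 0 h, and the others began from higher counts. The part of depth in the lost calls was not tested.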
